A study of Saccharomyces cerevisiae with 18 samples.

Results

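The data set out here are the changes of the ratio between the 2 parental copies of each transcript from 6 to 24 min after transcription was shut off in a hybrid yeast. A transcript feature is an annotated gene with its untranslated regions, or several overlapping genes joined into 1 unit. A feature was included when, over the 6 libraries of the comparison, its reads that could be assigned to a parent (allelic reads) averaged 20 or more and those of each allele averaged 2 or more. This held for 2888 of 3974 features. Of the other 1086 features, 1058 had too few reads and 28 had too few reads of 1 allele. The read minimum fell between VPS54, SLU7 and GAL80, with 20 reads each and BY shares of 59.4%, 66.7% and 72.3% at 24 min against 50.0%, 47.8% and 60.3% at 6 min, and HAP3, THP2 and YKL069W, with 19.8 reads each and BY shares of 33.8%, 46.4% and 50.0% at 24 min against 37.3%, 66.7% and 57.0% at 6 min.

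Both groups came from 1 diploid Saccharomyces cerevisiae strain. One set of chromosomes was from BY4716 (BY), a laboratory strain of the reference background, and the other was from RM11-1a (RM), a vineyard strain. The rpb1-1 mutation was put into both parents before mating. It makes RPO21, the largest RNA polymerase II subunit, fail in the heat. Cultures in mid-log phase in rich medium (YEPD) at 24 °C were brought to 37 °C with an equal volume of medium at 50 °C. The 24 min libraries and the 6 min libraries were each made from aliquots of 3 cultures, described as independent biological replicates, so culture 1, 2 and 3 gave 1 library at each time. All cells therefore carried the polymerase mutation, all had been heated, and no culture was kept at 24 °C for comparison.

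In yeast, most mRNAs are lost after their poly(A) tail is shortened: the cap is removed and the exonuclease Xrn1 digests the body from the 5′ end, while the exosome digests from the 3′ end. Sequences in the transcript, many of them in the 3′ untranslated region, set how fast this happens. In a hybrid, both parental transcripts of a gene sit in the same cell with the same decay proteins, so a BY share of the reads that changes after the shut-off means that the remaining reads of the 2 alleles changed by different factors. The ratio is relative within a library. It does not give the loss of either transcript per cell, and the deposited counts do not show whether a fall of a feature's share of the pool came from that transcript or from the others.

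The 6 libraries held 5399695 allelic reads, with 711957 to 1065708 each, and the tested features had a median of 125 reads per library (range 20 to 20490) and a median of 6 single-nucleotide variants (SNVs). In the whole library, BY reads made up 49.5% ± 0.0465 of the total at 24 min (SD, n = 3), against 49.5% ± 0.0162 in the 3 libraries of 6 min. By the exact two-sided permutation test, the difference of -0.00725 percentage points had p = 0.8, where 0.1 is the smallest that 3 against 3 can give, and it was -0.0338, 0.0505 and -0.0384 in cultures 1, 2 and 3. With the SNVs that the summary table leaves out, this difference was 0.341 percentage points. Each of the 16 chromosomes had reads of both parents, with BY shares from 47.8% to 53.0%. LYS2, which is deleted in BY4716, had 6 BY reads and 883 RM reads over the 6 libraries, or 0% to 2.13% BY reads per library. Of the tested features, 2165 held 1 gene, 722 held several and 1 matched no annotated gene. Where genes are joined in 1 feature, its value belongs to the feature and not to any 1 of them.

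The BY/RM ratio of 49 features, 1.7% of those tested, differed between 24 and 6 min. A feature is called here when the quasi-likelihood F-test of edgeR gave it a Benjamini-Hochberg adjusted p below 0.05. It was higher at 24 min for 27 (0.935%) and lower for 22 (0.762%), and 275 features had an unadjusted p under 0.05. Features with the higher ratio included the transcriptional regulators RPI1 and HAP1, the Ras regulator IRA2, the chaperone SSA1 and the putative aryl alcohol dehydrogenase YPL088W. Features with the lower ratio included the keto reductase YDL124W, the transcription factor CIN5, the nitric oxide dioxygenase feature YHB1/MIC26, the glucan synthase FKS1 and the peroxisomal ATPase PEX6. In all 49 the 3 cultures moved the same way, as they did in 29.8% of all tested features. In 47 the 3 libraries of 24 min did not overlap those of 6 min, against 14.6% of all tested features, and the calls rest on the same libraries as these counts.

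The sizes were moderate for most called features. The called changes of log2(BY/RM) had a median size of 0.55 and ran from 0.19 to 2.37 in size, while all tested features had a median size of 0.15, a 95th percentile of 0.68 and a median change of 0.00. Of the 49 features, 34 were farther from equal reads of both parents at 24 min and 15 were closer, and 46.6% of all tested features were closer. The mean share crossed the 50% line in 13 of them, 4 with a rising and 9 with a falling BY share, and in 27.2% of all tested features. How many features were called depended on the test and on the cultures. DESeq2 called 2 and a limma fit on log2 ratios, with a replicate block and no weights, called 0, with 37 and 246 at an unadjusted p under 0.05, whereas the quasi-binomial and weighted limma fits, both without the block, called 52 and 54. Without culture 1, 2 or 3 the count was 25 in each case. The 17 features that stayed called whichever culture was left out were YDL124W, CIN5, PEX6, YHB1/MIC26, ETT1, SFA1, GUA1, ZPR1, HSP12, FKS1/YLR342W-A, YKL096C-B/CWP2, GSY2, FPR3, SSA1, ARO8, RPI1 and YPL088W. The other 32 lost the call in at least 1 of these fits, and 18 of those lost it whichever culture was left out.

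**Figure D1:**
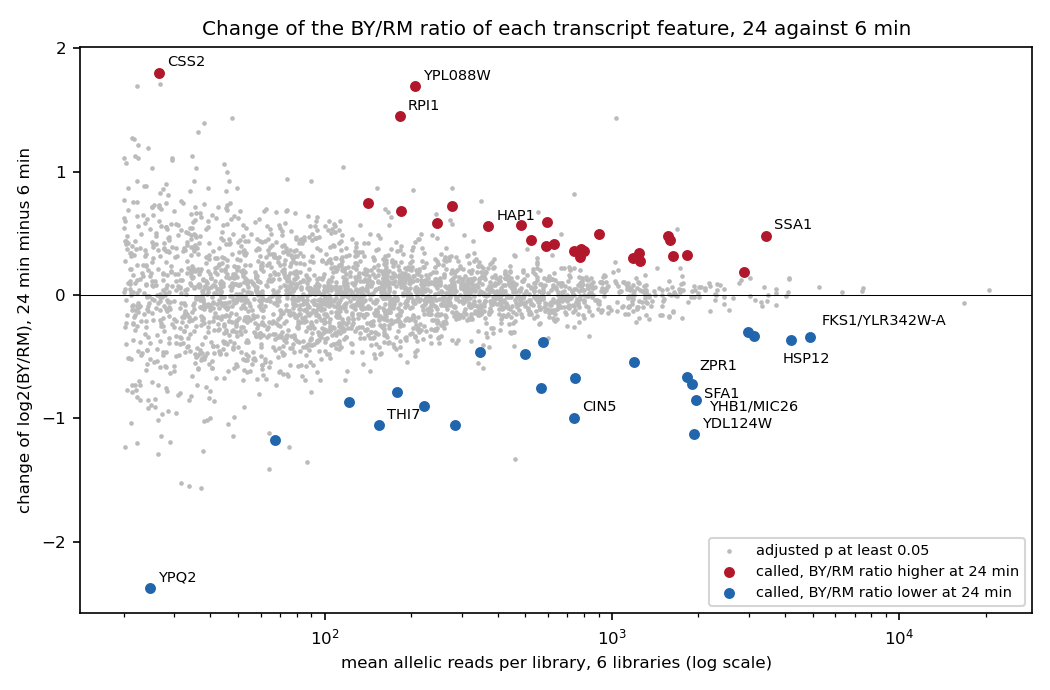
Change of log2(BY/RM), 24 min minus 6 min, of each of the 2888 tested features (vertical axis) against its mean allelic reads per library on a log scale (horizontal axis). Red points are the 27 called features with a higher ratio at 24 min, blue points the 22 with a lower ratio, and grey points all others; uncalled changes spread widely at low reads and narrow to the zero line at high reads.

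Binding sites of Puf proteins, which recruit the deadenylase to the 3′ untranslated regions of their targets in yeast, were looked for in the 200 bases after the stop codon of single-gene features in the R64 reference, a sequence of the BY background. The Puf3-type letters TGTANATA and the Puf4-type letters TGTANANTA were searched, and each site was read on both strands. The letters of both kinds cannot start at the same base. Every coding-strand site found in a called feature is given, first the 5 Puf3-type and then the 4 Puf4-type sites; capitals mark the motif and each sequence runs 5′ to 3′ on the coding strand.
CDC53 (chrIV:226839-226868, + strand): atatatatataTGTATATAtatatatgtgt
GUA1 (chrXIII:703516-703545, + strand): ttgtattatctTGTACATAagtatgcacct
PEX6 (chrXIV:19491-19520, - strand): ataggtaaattTGTAAATAtatgtcccata
IRA2 (chrXV:180352-180381, + strand): gtaagcatgaaTGTACATAtctcatgttag
IRA2 (chrXV:180480-180509, + strand): attcaagcgccacatagactaaTGTACATA
YDL124W (chrIV:241313-241342, + strand): aaaaaagggcTGTACATTAtataaaaggcc
ZPR1 (chrVII:916843-916872, + strand): tttaaactttTGTATAATAgttgaaataga
TIR3 (chrIX:334691-334720, + strand): tacacttggcTGTACATTAaaaaaaggaat
AFG2 (chrXII:912454-912483, - strand): ccggtcatttTGTATAATAtattaatcact

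Of these 8 features, CDC53, IRA2 and AFG2 had a higher BY/RM ratio at 24 min, and GUA1, PEX6, YDL124W, ZPR1 and TIR3 had a lower one. Over all 2160 features searched, the Puf3-type letters occurred on the coding strand in 14.2% and the Puf4-type letters in 7.69%. Among the 38 called features searched, each kind occurred in 4 (10.5%). On the opposite strand the shares were 12.4% and 4.26% of all features, against 2.63% and 5.26% of the called ones (1 and 2 features). With so few called features for each motif, these shares give no result about the called features. Whether they differ from those of all features searched was not tested. The sequence of the RM copies and the SNV positions were not used here, so whether any of these sites differs between the parents was not tested.

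Below, shares are BY percentages of the allelic reads of a feature in the libraries of cultures 1, 2 and 3, in that order, changes are of log2(BY/RM), 24 min minus 6 min, and the ± of a change is an approximate standard error (the change over the root of the F statistic). Adjusted p-values are those of the edgeR test over all 2888 features. Read numbers of a feature are sums over its SNVs, so a read over several SNVs can count more than once. Positions are those of the annotated genes in build R64.

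Enzymes of metabolism changed in both directions. YPL088W, annotated as a putative aryl alcohol dehydrogenase (chromosome XVI, 381965 to 382993), had 38.2%, 33.1% and 29.9% BY reads at 24 min, against 16.4%, 11.1% and 12.9% at 6 min. RM reads were in the majority at both times, and the lowest 24 min library lay above the highest 6 min library. The change was 1.69 ± 0.21 (adjusted p = 1.37e-09). YDL124W, a NADPH-dependent keto amide reductase gene (IV, 240259 to 241197), had the opposite direction. Its shares were 63.9%, 58.7% and 58.9% at 24 min, against 78.3%, 75.4% and 76.4% at 6 min. The highest 24 min library was well below the lowest 6 min library, and the change of -1.13 ± 0.07 had the lowest adjusted p of all features (1.04e-21), from 8044 reads at 24 min and 3547 at 6 min.

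SFA1, the alcohol and formaldehyde dehydrogenase gene (IV, 159604 to 160764), already had a majority of RM reads and moved further that way. Its BY shares were 14.2%, 13.5% and 12.4% at 24 min, against 18.5%, 21.1% and 21.5% at 6 min, with no overlap. The change was -0.72 ± 0.08 (adjusted p = 2.91e-11). BDH1, which encodes butanediol dehydrogenase, had 44.2%, 39.7% and 35.3% at 24 min against 52.0%, 52.3% and 43.1% at 6 min. These ranges overlap, because culture 3 was lower than the others at both times, and each culture fell by itself; the change was -0.55 ± 0.10 (adjusted p = 3.47e-05, and 0.0637 at the highest without 1 culture).

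The nitric oxide dioxygenase gene YHB1 shares a feature with MIC26, a gene of the mitochondrial cristae complex (VII, 959904 to 962061). The feature had 39.5%, 35.8% and 29.0% BY reads at 24 min, against 50.2%, 49.9% and 47.5% at 6 min. Shares near parity at 6 min had thus become a clear RM majority in each culture, a change of -0.85 ± 0.07 (adjusted p = 4.74e-15). The feature of the CTP synthase gene URA8 and the superoxide dismutase gene SOD1 went the other way, with 74.8%, 76.4% and 76.7% at 24 min against 72.5%, 71.6% and 70.3% at 6 min (0.34 ± 0.08, adjusted p = 0.00598). In the feature of the cytochrome c gene CYC1 and the NAD kinase gene UTR1, the shares were 41.5%, 39.0% and 37.5% at 24 min and 47.5%, 44.2% and 45.2% at 6 min (-0.38 ± 0.10, adjusted p = 0.0280). CBR1, the cytochrome b5 reductase gene, just passed the threshold with 0.31 ± 0.09 (adjusted p = 0.0497, and 0.0620 with the cultures as a replicate block).

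Among genes of amino acid, nucleotide and vitamin metabolism, GUA1 encodes GMP synthetase (XIII, 701790 to 703367). It had 36.8%, 36.3% and 35.9% BY reads at 24 min, against 47.4%, 48.5% and 47.3% at 6 min. The 3 cultures lay close together at each time and far apart between times, and the change was -0.68 ± 0.12 (adjusted p = 3.47e-05). ARO8, the aromatic aminotransferase gene (VII, 116059 to 117561), rose to 62.4%, 63.7% and 59.8% at 24 min, against 52.6%, 56.7% and 52.7% at 6 min (0.49 ± 0.09, adjusted p = 6.88e-05). THI7, which encodes the thiamine transporter of the plasma membrane (XII, 612367 to 614163), had 74.8%, 68.5% and 72.7% at 24 min against 85.2%, 83.9% and 83.7% at 6 min. Most reads stayed BY, the groups did not overlap, and the change was -1.06 ± 0.23 (adjusted p = 0.00293). It was the only member of the list of membrane transporters and pumps that passed, of 70 tested. RDL1, a thiosulfate sulfurtransferase gene (XV, 849635 to 850054), had 39.5%, 35.3% and 36.9% at 24 min and 28.8%, 25.9% and 29.7% at 6 min (0.57 ± 0.12, adjusted p = 0.00110). DPS1, the cytosolic aspartyl-tRNA synthetase gene, changed by 0.32 ± 0.07 (adjusted p = 0.000801). Of 26 features that hold aminoacyl-tRNA synthetase genes it was the 1 called (3.85%, against 1.7% of all tested features).

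**Figure D2:**
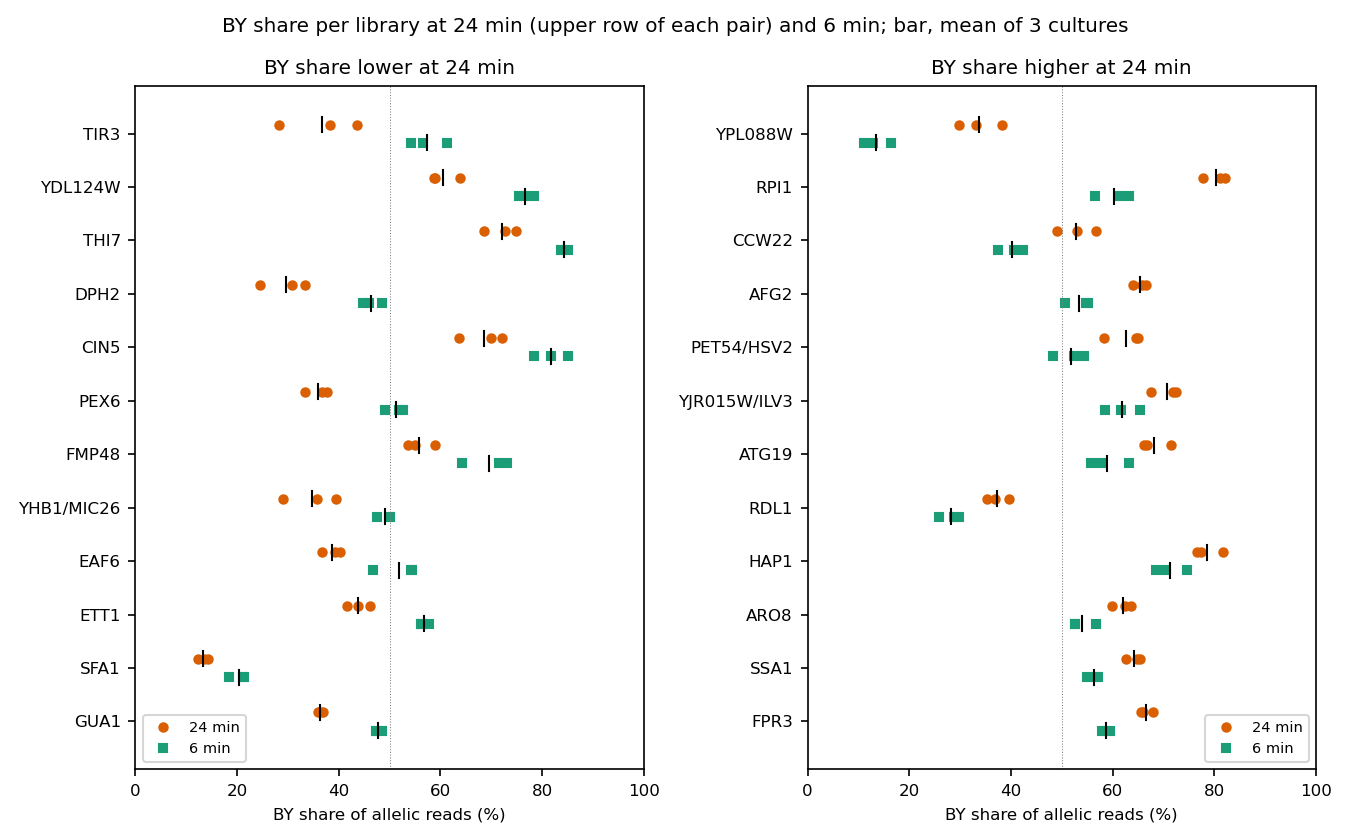
BY share of allelic reads (horizontal axis, percent) in each library at 24 min (orange circles, upper row of each pair) and 6 min (green squares) for the 12 called features per direction with the largest changes among those with enough reads; black bars are means of 3 cultures and the dotted line marks 50%. In each of these 24 features the circles and squares do not overlap, from 13.4% at 24 min for SFA1 to 84.3% at 6 min for THI7 as the lowest and highest means.

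Regulators of transcription and signalling changed in both directions. RPI1, a putative transcriptional regulator tied to Ras signalling and the cell wall (IX, 136654 to 137877), had 77.8%, 82.1% and 81.2% BY reads at 24 min, against 56.5%, 63.2% and 61.3% at 6 min. All 24 min libraries lay far above all 6 min libraries, and the change was 1.45 ± 0.24 (adjusted p = 1.17e-05), from 241 reads at 24 min and 854 at 6 min. HAP1, the heme-responsive activator whose copy in the S288C background carries a Ty1 insertion at its 3′ end (XII, 646415 to 650923), had 81.7%, 76.6% and 77.5% at 24 min against 70.4%, 74.7% and 68.5% at 6 min. The groups came close in culture 2 without overlap; the change of 0.56 ± 0.15 passed (adjusted p = 0.0280) but not with the replicate block (adjusted p = 0.0568). IRA2, a GTPase-activating protein that turns Ras off (XV, 171070 to 180309), had 54.5%, 60.8% and 55.4% at 24 min and 49.9%, 51.4% and 48.4% at 6 min (0.41 ± 0.10, adjusted p = 0.0142).

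CIN5, a basic leucine zipper transcription factor of the YAP family (XV, 383533 to 384420), had 70.0%, 72.2% and 63.7% BY reads at 24 min, against 85.1%, 81.8% and 78.3% at 6 min. Each culture had a lower share at 24 min, without overlap of the groups, and the change was -0.995 ± 0.12 (adjusted p = 9.36e-10). EAF6, a subunit of the NuA4 and NuA3 histone acetyltransferases, had 36.7%, 40.2% and 39.3% at 24 min against 54.4%, 46.8% and 54.3% at 6 min (-0.79 ± 0.18, adjusted p = 0.00440). HSL1, the kinase of the morphogenesis checkpoint, changed by 0.37 ± 0.09 (adjusted p = 0.00730) and CDC53, the cullin of the SCF ubiquitin ligase, by 0.30 ± 0.07 (adjusted p = 0.0135). A list of 37 genes, drawn up as regulators known to differ between the parents, had 27 tested features. Of these, 4 were called (14.8%, against 1.7% of all tested features). RPI1, HAP1 and IRA2 had a higher ratio, and SFA1, which encodes an enzyme, had a lower one. The median change of the list was 0.06, and whether it held more calls than features with like reads was not tested. Other members did not pass: the RNA-binding regulator SSD1 had 35.3%, 34.6% and 41.9% at 24 min against 46.7%, 45.0% and 45.3% at 6 min (-0.49 ± 0.18, adjusted p = 0.256), AMN1, a regulator of mitotic exit and daughter cell separation, had -0.20 ± 0.22 (adjusted p = 0.853) and MKT1 had 0.10 ± 0.17 (adjusted p = 0.941).

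The feature of the biotin ligase gene BPL1 and of RPO21, the gene with the rpb1-1 mutation (IV, 203039 to 210561), had a large BY excess throughout. Its shares were 93.9%, 94.5% and 95.6% at 24 min, against 93.8%, 92.9% and 92.3% at 6 min. The lowest 24 min library and the highest 6 min library were almost equal. The log2 ratio changed by 0.03, 0.39 and 0.86 in cultures 1, 2 and 3. The change of 0.44 ± 0.13 was called (adjusted p = 0.0439) but lost with the replicate block (adjusted p = 0.102). Without culture 3 it was 0.197 (adjusted p = 0.886), and without SNVs under 2% or over 98% BY it was 0.306 (adjusted p = 0.571).

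Chaperone and stress genes were called in both directions too. SSA1, a cytosolic Hsp70 gene (I, 139503 to 141431), had 64.9%, 65.3% and 62.6% BY reads at 24 min, against 56.8%, 57.1% and 55.0% at 6 min. Culture 3 was lowest at both times, the groups did not overlap, and the change was 0.48 ± 0.05 (adjusted p = 2.40e-12). SSA1 has a near-identical copy, SSA2, so reads could be shared between both genes. SSE1, the Hsp110 exchange factor of Hsp70, shares a feature with DPC25, and this feature had 61.0%, 59.1% and 61.7% at 24 min and 54.0%, 51.3% and 53.2% at 6 min (0.45 ± 0.11, adjusted p = 0.00728). HSP12, a small stress protein of membranes (VI, 107256 to 107585), had 48.9%, 49.6% and 49.2% at 24 min against 60.0%, 52.8% and 55.2% at 6 min. The 24 min libraries were nearly equal and the 6 min libraries were spread, and the change was -0.37 ± 0.06 (adjusted p = 1.26e-06). These 3 were the called members of the list of heat shock proteins and chaperones, of 27 tested (11.1%, against 1.7% of all tested features). The list had a median change of 0.02 and a median size of 0.07, against a size of 0.15 for all tested features. SSA1 and HSP12 averaged 3432 and 4187.5 reads per library, against a median of 125 for tested features. Whether the list held more calls than features with like reads was not tested.

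The 2 glycogen synthase isozymes changed in opposite directions, and their BY shares were closer to each other at 24 min than at 6 min. GSY2 (XII, 660716 to 662833) had 60.1%, 58.5% and 57.5% BY reads at 24 min against 64.3%, 64.3% and 62.4% at 6 min, a change of -0.30 ± 0.05 (adjusted p = 7.97e-05). GSY1 (VI, 174265 to 176391) had 57.7%, 60.6% and 61.3% at 24 min against 52.9%, 57.8% and 57.4% at 6 min. Its groups overlapped by a narrow margin, its change was 0.27 ± 0.08 (adjusted p = 0.0411), and the call was lost with the replicate block (adjusted p = 0.138). Of the general stress response list of 35 tested features, targets of the transcription factors Msn2 and Msn4, 4 were called (11.4%, against 1.7% of all tested features): GSY1 with a higher ratio, and GSY2, HSP12 and YDL124W with a lower one. The median change of this list was 0.05, and whether it held more calls than features with like reads was not tested.

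On the list of cell wall and cell wall integrity genes, 6 of 60 tested features were called (10%, against 1.7% of all tested features). The median change of these 60 was 0.02, and whether they held more calls than features with like reads was not tested. The feature of FKS1, the catalytic subunit of glucan synthase, and of the small overlapping gene YLR342W-A (XII, 809997 to 815983) had 48.9%, 46.9% and 47.7% BY reads at 24 min, against 53.9%, 53.8% and 53.5% at 6 min. RM reads were the majority in each 24 min library and BY reads in each 6 min library, and the change of -0.34 ± 0.04 (adjusted p = 9.36e-10) rested on 13241 reads at 24 min and 16012 at 6 min. The feature of the mannoprotein gene CWP2 and YKL096C-B had 47.6%, 47.2% and 48.9% at 24 min against 54.4%, 52.7% and 53.8% at 6 min (-0.33 ± 0.05, adjusted p = 6.11e-07). TIR3, a mannoprotein gene of the Tip1 family (IX, 333727 to 334536), had the largest change of the list, with 28.2%, 43.6% and 38.2% at 24 min against 56.6%, 61.3% and 54.2% at 6 min (-1.18 ± 0.33, adjusted p = 0.0364). It rested on 112 reads at 24 min and 291 at 6 min. EXG1, an exo-glucanase gene, changed by -0.48 ± 0.11 (adjusted p = 0.00450). TIP1 rose, with 63.4%, 63.8% and 63.0% at 24 min against 57.9%, 57.4% and 59.2% at 6 min (0.32 ± 0.06, adjusted p = 0.000801). The feature of UTH1 and SHB17 had the smallest called change, 0.19 ± 0.05 (adjusted p = 0.0335, and 0.0531 with the replicate block).

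Genes of protein synthesis, folding and ribosome assembly made up a further group. ZPR1 is a zinc finger protein needed to fold the elongation factor eEF1A (VII, 915241 to 916701). Its BY shares were 33.5%, 34.3% and 33.2% at 24 min, against 44.0%, 44.9% and 44.7% at 6 min. The gap between the groups was many times the spread of the cultures at either time, and the change was -0.66 ± 0.06 (adjusted p = 3.78e-13). DPH2, which acts in diphthamide synthesis on elongation factor 2 (XI, 81035 to 82639), had 33.3%, 30.9% and 24.6% at 24 min against 48.5%, 46.0% and 44.8% at 6 min (-1.05 ± 0.25, adjusted p = 0.00645). The DPH2 call was lost whichever culture was left out. Only 1 of its 15 SNVs had at least 30 reads at each time. At its SNV with the most reads the change was -0.25 (adjusted p = 0.948 over 2179 features). Computed within SNVs and then combined, it was -1.10. ETT1, a nuclear protein that affects translation termination (XV, 424846 to 426084), had 46.1%, 41.7% and 43.8% at 24 min against 57.7%, 56.3% and 56.2% at 6 min (-0.75 ± 0.12, adjusted p = 1.78e-06). AFG2, an ATPase of late 60S subunit maturation (XII, 912550 to 914892), rose to 66.7%, 63.9% and 65.7% at 24 min, against 55.1%, 54.7% and 50.6% at 6 min (0.72 ± 0.15, adjusted p = 0.00106). It was the 1 called feature of 96 on the ribosome biogenesis list (1.04%, against 1.7% of all tested features). FPR3, a nucleolar peptidyl-prolyl isomerase (XIII, 120089 to 121324), had 67.9%, 66.0% and 65.6% at 24 min and 59.5%, 57.8% and 58.6% at 6 min (0.48 ± 0.07, adjusted p = 1.27e-07).

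Genes of organelles, membranes and other functions made up the next group. PEX6, an ATPase of peroxisome assembly (XIV, 19541 to 22633), had 36.7%, 37.7% and 33.5% BY reads at 24 min, against 49.03%, 51.8% and 52.7% at 6 min. The 6 min libraries were near parity and the 24 min libraries had an RM majority, and the change was -0.90 ± 0.16 (adjusted p = 6.26e-05). ATG19, the receptor that brings aminopeptidase I to the vacuole (XV, 168727 to 169974), had 66.2%, 71.6% and 66.9% at 24 min against 63.2%, 55.8% and 57.7% at 6 min (0.58 ± 0.17, adjusted p = 0.0450, and 0.0812 with the replicate block). ATG19 and IRA2 are neighbours on chromosome XV, on the same strand and 1096 bp apart, and both BY shares rose. The feature of PET54, a mitochondrial gene expression factor, and HSV2, a phosphoinositide-binding autophagy protein, had 0.68 ± 0.18 (adjusted p = 0.0211). KES1, an oxysterol-binding protein, changed by 0.35 ± 0.09 (adjusted p = 0.0202) and AIP1, a partner of cofilin in actin turnover, by 0.36 ± 0.09 (adjusted p = 0.0179). FMP48 changed by -0.87 ± 0.25 (adjusted p = 0.0450), and YLR177W by -0.46 ± 0.13 (adjusted p = 0.0422), and neither passed with the replicate block (adjusted p = 0.0624 and 0.0783). YIM1 had 0.39 ± 0.10 (adjusted p = 0.0171) and CCW22 0.75 ± 0.20 (adjusted p = 0.0280). FMP48 and CCW22 rested on 1 SNV each. The calls of PET54/HSV2, KES1, AIP1, FMP48, YLR177W, YIM1 and CCW22 were lost whichever culture was left out.

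The largest changes of all were in features with few reads. YPQ2, a gene of the vacuolar amino acid transporter family, had 17.6%, 5.56% and 25.0% BY reads at 24 min against 55.9%, 40.0% and 58.1% at 6 min, from 63 reads at 24 min and 85 at 6 min (-2.37 ± 0.53, adjusted p = 0.00348). CSS2 had 73.1%, 62.5% and 54.5% at 24 min against 33.3%, 45.0% and 27.5% at 6 min, from 72 reads at 24 min and 87 at 6 min (1.80 ± 0.47, adjusted p = 0.0206, and 0.0531 with the replicate block). Single libraries of both were far apart within a time, so their sizes are known only roughly.

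No feature was called on 8 of the 21 gene lists. These were the cytosolic ribosomal proteins (75 tested, median change 0.01), mitochondrial ribosomal proteins (48, -0.01), the proteasome (31, -0.04), mRNA decay and surveillance factors (55, 0.02), translation factors (29, 0.03), ergosterol synthesis (23, -0.07), glycolysis (12, 0.04) and histones (5, 0.08). Of the 278 features tested on these lists, edgeR gave 21 an unadjusted p under 0.05. DESeq2 and unweighted limma with the replicate block called 0 of them as well, while the quasi-binomial and weighted limma fits each called 2, TDH3, a glyceraldehyde-3-phosphate dehydrogenase gene (-0.07 ± 0.03 in edgeR), and MHF1/ADH1, with the main alcohol dehydrogenase gene (0.13 ± 0.04). The ribosomal protein, proteasome and decay factor lists had median sizes of 0.09, 0.07 and 0.10, against 0.15 for all tested features. Such sizes were not particular to lists without calls. The median size was 0.07 for heat shock proteins and chaperones and 0.09 for respiration, which had calls, and 0.30 for ribosome biogenesis. Over all tested features 1.7% were called, and 81 tested features, ribosomal protein genes among them, hold a gene with a near-identical copy whose reads could be shared. Purine and pyrimidine synthesis had 2 called of 30, amino acid synthesis 2 of 64, redox defence 3 of 32, respiration 1 of 49, cyclins and cell cycle regulators 1 of 39 and autophagy 1 of 34. In all, 28 of the 49 called features were on at least 1 list.

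The libraries of 12 and 18 min lie inside the same interval and were not used to make the calls. The mean BY share of the called features at 12 min lay between those at 24 and 6 min in 41 of 49, and at 18 min in 37 of 49; over all tested features this held for 32.3% and 20.0%. These counts share the libraries of 24 and 6 min with the calls. Between 18 and 12 min themselves, with no shared library, 38 of the 49 features had the sign of their change from 6 to 24 min. Of all tested features, 50.7% had a positive change, and how many kept the sign of their own change was not counted. Only the feature that holds MAE1, which is not among the 49, was called in that comparison (0.0346%), with 122 at an unadjusted p under 0.05. The library of 18 min replicate 3 held 74320 allelic reads, against 439453 to 738108 in the other 12 and 18 min libraries, and 1 feature was also called without it.

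The course inside the interval differed between members. For ZPR1 the BY share was 33.5% ± 2.04 at 12 min, 34.3% ± 3.52 at 18 min and 33.7% ± 0.567 at 24 min, so the 24 min level was already present at 12 min. SFA1 had most but not all of its fall by 12 min, with 20.4% ± 1.65 at 6 min, 15.6% ± 0.824 at 12 min, 14.03% ± 1.49 at 18 min and 13.4% ± 0.931 at 24 min. YDL124W fell step by step, with 76.7% ± 1.498 at 6 min, 69.5% ± 0.594 at 12 min, 63.8% ± 5.36 at 18 min and 60.5% ± 2.996 at 24 min. DPH2 had 46.4% ± 1.85 at 6 min, 46.9% ± 3.10 at 12 min and 33.2% ± 7.24 at 18 min. FKS1/YLR342W-A had 46.7% ± 3.76 at 18 min against 52.4% ± 0.0998 at 12 min, and AFG2 had 68.2% ± 6.69 at 18 min against 55.9% ± 2.03 at 12 min (SD, n = 3 each). By these means DPH2, FKS1/YLR342W-A and AFG2 had most of their change between 12 and 18 min, though none of these steps passed adjustment. At 18 min these features had 103, 6649 and 318 reads over all cultures. Each library weighs equally in the means, that of 18 min replicate 3 with its few reads included.

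**Figure D3:**
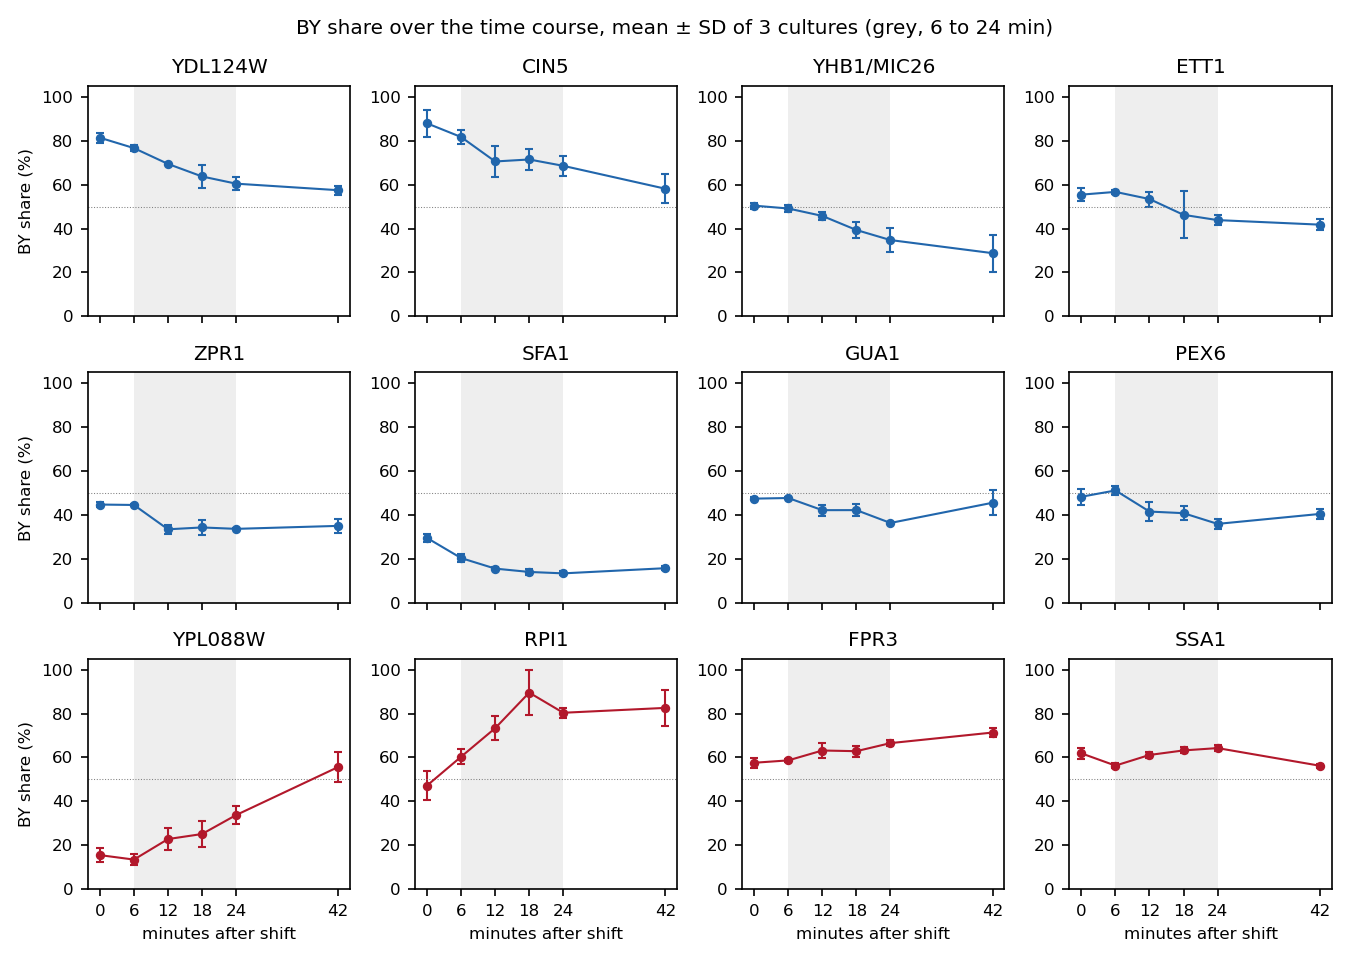
BY share of allelic reads (vertical axis, percent) against minutes after the shift (horizontal axis) for 12 called features; points are means and bars SD of 3 cultures, and grey marks 6 to 24 min. Blue features have a lower and red features a higher share at 24 min; SSA1 turns back after 24 min to 56.2% at 42 min, while YPL088W goes on to 55.7%.

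The libraries of 42 and 0 min gave a second reading of the ratio that used no library of the calls, though from the same cultures. In that comparison 149 of the 2888 features were called (5.16%), 89 with a higher ratio at 42 min (3.08%) and 60 with a lower one (2.08%). Of the 49 features called between 24 and 6 min, 33 were called again, which is 67.3% of the 49 and 22.1% of the 149. Of those, 32 had the same direction and SSA1 the opposite one, with -0.33 ± 0.06 for 42 min minus 0 min (adjusted p = 0.000289). Without regard to calls, 46 of the 49 had the same sign, while 50.2% of all tested features had a positive change from 0 to 42 min. How many of all tested features kept the sign of their own change from 6 to 24 min was not counted. GUA1, THI7, PEX6, HSP12 and IRA2 were among the 16 not called over the whole course. IRA2 had a change of -0.01 ± 0.12 from 0 to 42 min (adjusted p = 0.981) and GUA1 of -0.02 ± 0.13 (adjusted p = 0.983). The IRA2 change from 6 to 24 min was not called whichever culture was left out. By edgeR, its contrasts with the change before (0.67 ± 0.18, adjusted p = 0.0561) and after (0.59 ± 0.20, adjusted p = 0.311) were not called. This does not show that the changes were alike.

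Whether the change from 6 to 24 min differed from that of the neighbouring intervals was tested with all 18 libraries in 1 edgeR fit. Against the 18 min that followed, 11 features differed (0.381%), of which 9 were among the 49. GUA1 fell by 0.68 from 6 to 24 min and then had 0.64 from 24 to 42 min, with shares of 45.6% ± 5.78 at 42 min against 36.4% ± 0.468 at 24 min (SD, n = 3 each); the contrast was -1.32 ± 0.26 (adjusted p = 0.000576). SSA1 had -0.33 from 0 to 6 min, 0.48 from 6 to 24 min and -0.48 from 24 to 42 min. Its share thus went down, up and down again: it was 61.9% ± 2.55 (SD) at 0 min, 56.3% ± 1.14 at 6 min, 64.3% ± 1.45 at 24 min and 56.2% ± 0.852 at 42 min. For SSA1 the contrast with the later interval was 0.96 ± 0.09 (adjusted p = 3.67e-15). SFA1 fell by 0.72 and then had 0.27 (contrast -0.99 ± 0.14, adjusted p = 5.17e-08). YDL124W, ZPR1, FKS1/YLR342W-A, PEX6, THI7 and HSP12 also fell in the middle interval and differed from the later one.

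Against the first 6 min, 17 features differed (0.589%), 12 of them among the 49, and this contrast is of changes over 18 and 6 min, not of rates. From 0 to 6 min alone 19 features were called (0.658%), and from 24 to 42 min alone 14 (0.485%). For THI7 the ratio rose by 0.83 from 0 to 6 min before it fell, with shares of 74.9% ± 3.61 at 0 min, 84.3% ± 0.796 at 6 min and 72.0% ± 3.17 at 24 min (contrast -1.89 ± 0.38, adjusted p = 0.00119). YPL088W had -0.22 in the first 6 min and 1.69 afterwards (contrast 1.91 ± 0.38, adjusted p = 0.00119), and it went on by 1.30 from 24 to 42 min. DPH2, ETT1, ZPR1, GUA1 and YHB1/MIC26 had early changes of 0.03, 0.06, -0.02, 0.02 and -0.07, none of them called, and differed from their middle changes in this test. EXG1 and SFA1, by contrast, already had called changes of -0.998 and -0.73 in the first 6 min, and the contrast of the middle with the early change was not called (0.52 ± 0.19 and 0.02 ± 0.14).

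The share of the whole pool held by called features was lower at 24 min for some and higher for others, whichever allele gained. Over all tested features the pool share was lower at 24 min in 26.2% and higher in 24.4%, in edgeR's test of the summed alleles. Among the 49 it was lower in 19, higher in 14 and not called in 16; among the 27 with a higher BY/RM ratio these counts were 11, 7 and 9, and among the 22 with a lower ratio 8, 7 and 7. On the log2 scale the pool change was -3.08 for DPH2, -2.12 for GUA1, -1.94 for YJR015W/ILV3, -1.62 for RPI1, -1.37 for ETT1 and -1.10 for YHB1/MIC26. In these features the summed reads of both alleles lost share, and those of 1 allele lost more. For YJR015W/ILV3 it is not settled which allele lost more, because its ratio changed by 0.59 when summed and by -0.27 within SNVs.

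In contrast, HSP12 rose by 2.54 ± 0.23 (adjusted p = 9.19e-06), FMP48 by 1.51 ± 0.41, BDH1 and YDL124W by 1.37, and GSY2 by 1.33 ± 0.23 in pool share while their BY share fell. HSP12, YDL124W and GSY2 belong to the general stress list, which had 28 of 35 features with a higher and 1 with a lower pool share. In these counts, slower loss than that of other mRNAs and transcription after the shift cannot be told apart, for a feature or for 1 of its alleles. Under library totals in place of TMM factors, 2 of the 49 pool changes had the other sign and 20 were lower and 14 higher. Without culture 2, the pool counts among the 49 were 13 lower and 8 higher.

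**Figure D4:**
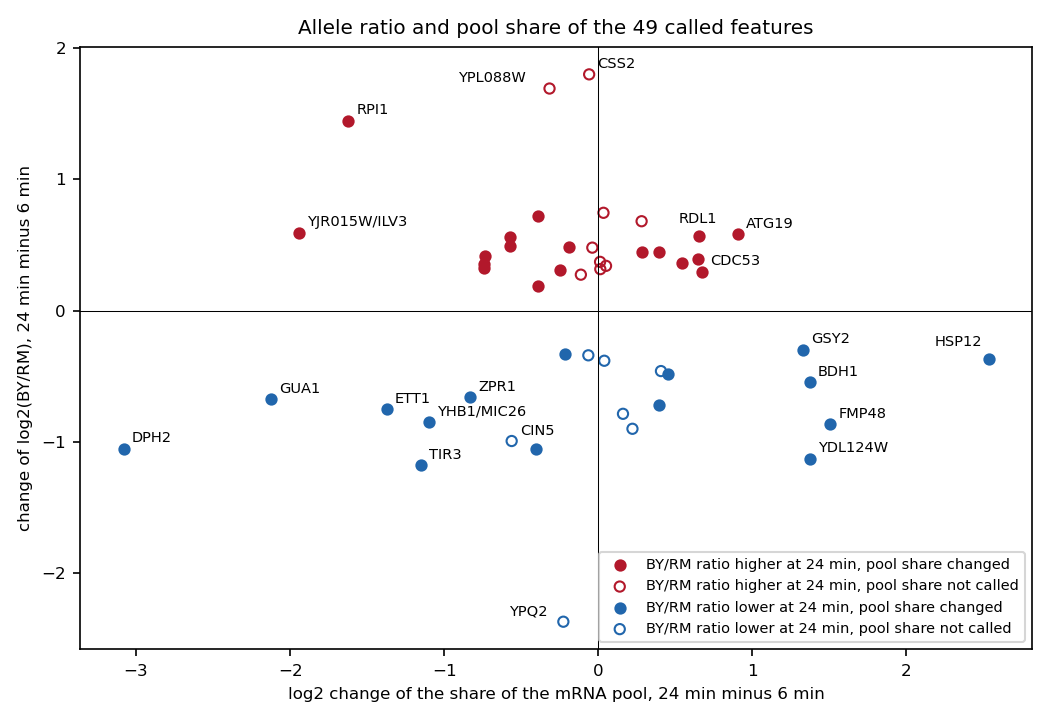
Change of log2(BY/RM) (vertical axis) against the log2 change of the share of the mRNA pool (horizontal axis), both 24 min minus 6 min, for the 49 called features. Filled symbols have a called pool change and open ones do not; both directions of the allele ratio occur on both sides, from DPH2 with -3.08 to HSP12 with 2.54 on the horizontal axis.

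A feature's counts are sums over its SNVs, so the change was also read at single SNVs with at least 30 reads at each time, summed over cultures. Of 433 such SNVs in called features, 378 moved in the direction of their feature. Of the 39 features with 3 or more of them, 23 had every SNV in the direction of the sum. All 13 of YDL124W, all 13 of IRA2, all 12 of HAP1 and all 14 of GSY2 agreed in sign, as did 63 of 75 in FKS1/YLR342W-A. SNVs covered by the same read are not independent. The direction of a feature is that of the sum of these same counts, so the agreement was in part fixed in advance. No like share was computed over all tested features. A ratio computed within SNVs and then combined (Mantel-Haenszel), from the same reads, lay within 1 error of the summed change in 47 of the 49 features.

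The exceptions were the feature of YJR015W and the dihydroxyacid dehydratase gene ILV3 of branched-chain amino acid synthesis, and BPL1/RPO21. YJR015W/ILV3 (X, 462721 to 466208) had 67.6%, 72.4% and 71.9% BY reads at 24 min against 58.4%, 65.4% and 61.6% at 6 min, a summed change of 0.59 ± 0.14 (adjusted p = 0.00640). Within SNVs it was -0.27, and only 1 of its 7 SNVs rose. The SNVs with the most reads at 6 min lost the most reads: for instance, one had 93 reads at 24 min and 862 at 6 min with 50.5% and 57.5% BY reads, while another had 164 and 176 reads with 84.1% and 89.2%. The summed ratio of this feature thus rose while 6 of its 7 single sites fell, and its call says nothing firm about the direction for either gene. The cause was not tested. For BPL1/RPO21 the change was 0.44 when summed and 0.26 within SNVs, with 14 of 22 SNVs rising.

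**Figure D5:**
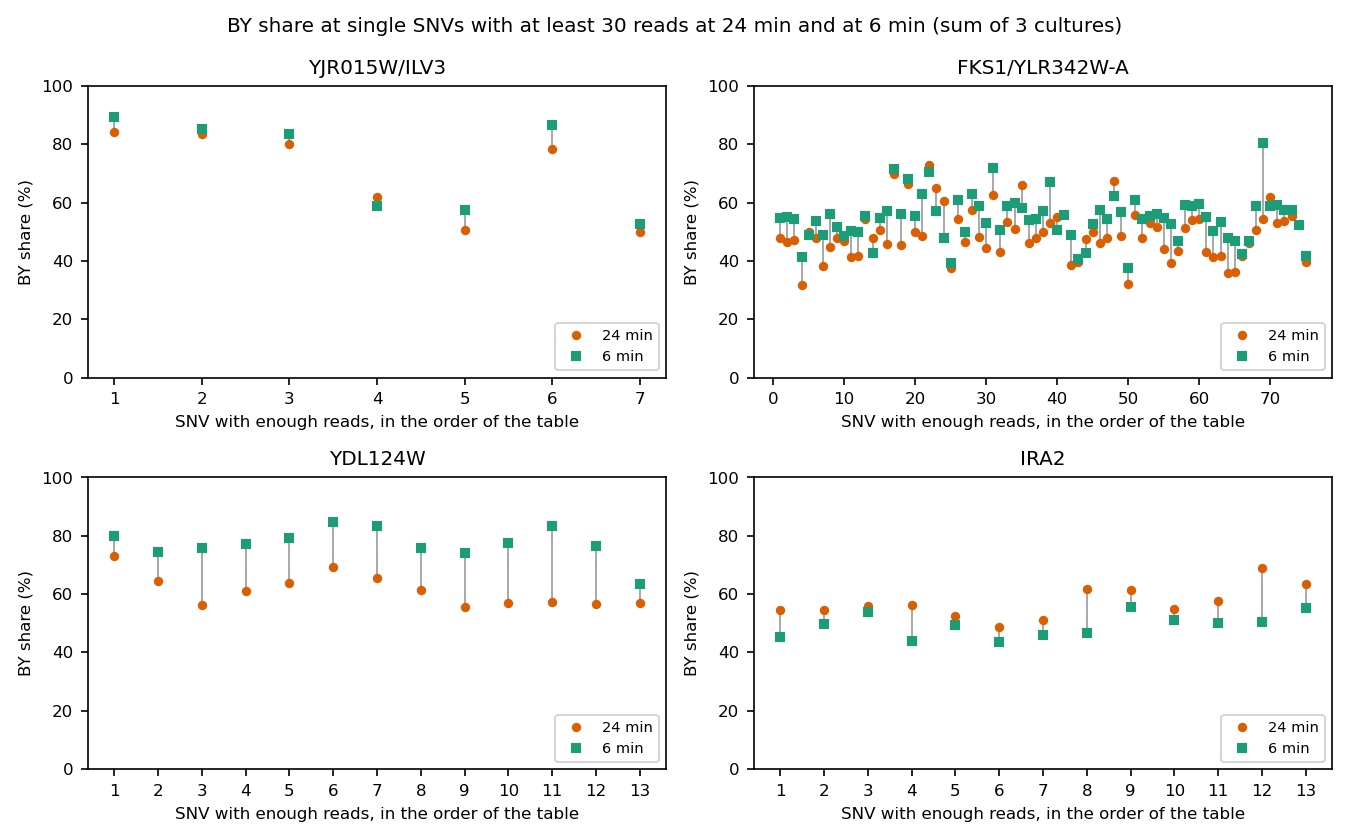
BY share (vertical axis, percent) at each SNV with at least 30 reads at both times (horizontal axis, in the order of the deposited table), at 24 min (orange circles) and 6 min (green squares), in 4 called features. In YDL124W all 13 SNVs are lower and in IRA2 all 13 are higher at 24 min, in FKS1/YLR342W-A 63 of 75 are lower, and in YJR015W/ILV3 only 1 of 7 follows the higher summed share.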

How the data were processed

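Poly(A) RNA of 6 of the series' 18 libraries was compared, 3 at 24 min and 3 at 6 min, with the other times as a further reading. The authors deposited raw read counts for each parental allele at each SNV. They mapped reads to both parental genomes, removed duplicates, masked badly mapping sites and joined overlapping genes, per the file headers. The submitters' processing notes name BWA 0.5.9, Picard 1.43 and sacCer3. Per the labels' protocols, the kit was unstranded, so the reads do not separate genes that overlap on opposite strands, and all libraries shared 1 lane. The per-SNV counts were summed, so a read over several SNVs can count at each.

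The summary table was used, which holds 30497 of 35952 SNVs. The other SNVs, with 9.82% of the reads, entered as an alternative. Counts were summed over the SNVs of a feature per allele and library. edgeR 4.0.16 in R 4.3.3 fitted 12 allele columns with a term per library, an allele term and an allele term at 24 min, using the library's allelic total as the size of both columns. Benjamini-Hochberg adjustment ran over 2888 features. Pool changes used both alleles summed with TMM factors. The other intervals were fitted in the same way, and contrasts between intervals used all 18 libraries. DESeq2 1.42.0 and limma 3.58.1 (pseudocount 0.5) served as alternatives, with other filters, SNV sets and library sizes and with each culture left out. The scripts were tested on simulated counts. No 2 libraries of a time were duplicates (chi-square per degree of freedom 1.72 to 4.12).

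Symbols and positions come from the R64 annotation, the assembly of sacCer3, with 1-based positions. A near-identical copy is a blastn 2.17.0 match of at least 90% identity over 100 bp. Per the labels' protocols, aliquots of 1 culture gave all times, so a replicate number marks 1 culture. Same-numbered libraries deviated from their group means with correlations of 0.282, 0.0811 and 0.308 for log2 CPM and 0.0400, -0.00372 and 0.0302 for the log2 allele ratio. A replicate block was therefore fitted beside the unblocked test.

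Members, lists and tests were chosen with earlier results of these data known. Named features were, per direction, the 12 called ones with the largest change and the same direction in 3 cultures (mean of 60 reads, 10 of each allele), the 3 with the lowest adjusted p, up to 3 called members per list, the 3 with the largest change among those differing from the later interval, and LYS2, RPO21, HAP1, IRA2, MKT1, AMN1 and SSD1. The other 13 called features and the features of the interval contrasts were chosen after their values were seen.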

Additional observations from a re-analysis of the deposited data

Results flagged for a closer look

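Features are listed here because the change of log2(BY/RM) from 6 to 24 min differed from that in a neighbouring interval by a test of the difference itself (edgeR, adjusted p below 0.05, all 18 libraries). Values are the middle change minus the other change. Against the first 6 min, the difference was positive for SSA1 (0.81), YPL088W (1.91), RSF2/YJR128W (0.80), the long-chain base resistance gene RSB1 (1.70), the sodium pump gene ENA1 (2.36) and RTA1 (2.70). RSB1, ENA1, RTA1 and RSF2/YJR128W were not called from 6 to 24 min. ENA1, which has the near-identical copies ENA2 and ENA5, had mean BY shares of 95.5% at 0 min, 76.0% at 6 min and 70.4% at 24 min, and RTA1 had 40.1%, 13.0% and 18.2% at these times.

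Against the first 6 min, the difference was negative for YHB1/MIC26 (-0.78), ZPR1 (-0.64), THI7 (-1.89), ETT1 (-0.81), YDL124W (-0.76), GUA1 (-0.69), HSP12 (-0.63), PEX6 (-1.10), YBR085C-A (-1.03), FKS1/YLR342W-A (-0.29) and DPH2 (-1.08). YBR085C-A was not called from 6 to 24 min and had 60.9% BY reads at 6 min against 45.4% at 0 min. These intervals differ in length.

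Against the following 18 min, SSA1 had 0.96, the only positive difference. Negative differences were found for YDL124W (-0.97), SFA1 (-0.99), ZPR1 (-0.75), GUA1 (-1.32), FKS1/YLR342W-A (-0.36), THI7 (-1.70), PEX6 (-1.20), HSP12 (-0.32), the glucose sensor gene SNF3 (-2.80) and LIN1 (-2.34). SNF3 and LIN1 were not called from 6 to 24 min. SNF3 had 70.2% BY reads at 42 min against 38.7% at 24 min, and LIN1 had 83.1% against 56.0%.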

How the results depend on the processing

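The count of 49 was 45 to 54 under library sizes, read and allele minima, exclusion of extreme SNVs, the fit of all libraries, the slopes and the added quasi-binomial and weighted limma fits, and 62 with all SNVs. With the replicate block it was 40, and the 9 lost calls were FMP48, YLR177W, UTH1/SHB17, GSY1, CBR1, BPL1/RPO21, HAP1, ATG19 and CSS2. The count was 2 with DESeq2, where 94.4% of features had their dispersion at its floor, 0 with unweighted limma and the replicate block, and 14 with the deepest SNV of each feature, of 2179 tested. It was 25 whichever culture was left out. Between 18 and 12 min the count of 1 became 2 with the block and 0 to 1 without 1 culture or library. Against the later interval, 11 became 12 with the block and 5 to 11 with libraries left out. Against the first 6 min, 17 became 22 with the block and 4 to 17 with libraries left out; without replicate 2 it was 4. Pool changes numbered 1463, 807 to 1378 without 1 culture (807 without culture 2), 1183 with DESeq2 and 1624 with the block. The shift of the whole-library BY share was 0.341 percentage points with all SNVs and -0.0716 without extreme SNVs. Signs reversed for GSY1 (-0.10), BPL1/RPO21 (-0.23) and YJR015W/ILV3 (-0.41) at the deepest SNV, for YJR015W/ILV3 within SNVs (-0.27), and for MKT1 without replicate 2 (-0.0112, and 0.286 without replicate 1). No other change of direction occurred among called features under these alternatives; the causes were not tested. The median feature had 125 reads per library; the count was 51 of 2087 tested with at least 60 reads and 49 of 3739 with no minimum. The quasi-binomial, weighted limma and within-SNV alternatives, and those without the library of 18 min replicate 3, were chosen after seeing the data.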
